A study of Bombyx mori with 2 samples.

Results

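The cytosolic ribosomal protein genes of the silkworm, *Bombyx mori*, were compared between the heads of the wildtype C603 and the *nm2* mutant. A gene was included when the protein name of its deposited BLAST hit held the words ribosomal protein followed by L, S or P and a number, and did not hold mitochondrial or kinase. The rule used names only, and no expression value. It found 75 of 12376 genes, 46 of the large subunit (L and P names) and 29 of the small subunit (S names). Of 79 protein names expected for the ribosome of an animal cell, 72 were found among the members. L29, L36A, L39, P0, S19, S25 and SA were not found by the rule. The names L20 and L44 were outside the expected names, and L44 is another name in use for L36A.

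Expression was measured by digital gene expression profiling, the sequencing of short reads from fragmented polyadenylated RNA, in 2 libraries. The wildtype library came from C603, a strain that molts normally, and the other from *nm2*, a mutant that arose in C603, carries a deletion in the coding part of *BmCPG10*, which encodes a cuticular protein, and cannot molt in the 2nd instar. Both were made from heads of larvae at the pre-molting stage of the 2nd instar, and each was a pool of 6 larvae. With no second pool of either strain the strains could not be tested against each other. The differences given are between a pair of libraries and have no replicate check. The strains were reared on mulberry leaves in the same way, and the labels give no sex for the pooled larvae.

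A ribosome is a small subunit, which reads the mRNA, and a large subunit, which joins amino acids. Each subunit is built from ribosomal RNA and a set of ribosomal proteins that are mostly present in a single copy, so a cell needs the proteins in nearly equal numbers. The mRNAs for these proteins are among the most abundant of growing cells. In animals many of them start with a run of pyrimidines, through which the TOR kinase pathway controls their translation according to nutrition. Much of their regulation therefore takes place without any change in the mRNA level, which is the only quantity measured here.

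The deposited values are FPKM, the fragments of a gene scaled to its length and to the size of the library, so that levels of different genes can be set side by side within a library. The difference between libraries was expressed as the ratio of the *nm2* FPKM to the wildtype FPKM, and as log2((*nm2* + 1)/(wildtype + 1)), which is negative where *nm2* was lower. There were 12912619 clean reads of the wildtype, of which 55.48% mapped to genes, and 12900347 of *nm2*, of which 60.12% did. Reads mapped to more than 1 position were 4.67% and 6.83%. Gene lengths are not listed for the members, so reads per gene and intervals for counting error could not be computed.

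All 75 members were expressed in both libraries, and 72 of them lay above 1000 FPKM in both. These 72 ranged from 1446 to 6927 FPKM in the wildtype, with a median of 2444 FPKM, and from 1069 to 5187 FPKM in *nm2*, with a median of 1888 FPKM. The level of the most abundant member was thus less than 5 times that of the least abundant in either library. Of the 100 most abundant genes, 38 in the wildtype and 26 in *nm2* were members. The order of the levels was largely shared, with a Spearman rho of 0.95 over the 72 genes, whose values come from the same pair of libraries.

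**Figure D1:**
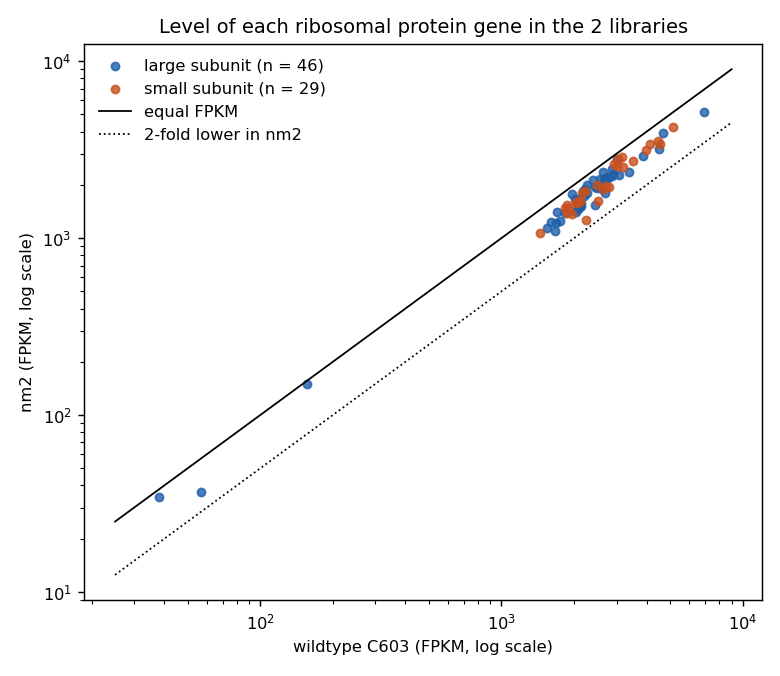
FPKM of each of the 75 ribosomal protein genes in the wildtype (horizontal, log scale) and in *nm2* (vertical, log scale), blue for the large and orange for the small subunit. As deposited, all points lie between the solid line of equal FPKM and the dotted line of a 2-fold lower level in *nm2*, and 3 large subunit genes stand apart below 200 FPKM.

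As deposited, every member was lower in *nm2* than in the wildtype, by a small amount, and 23 of them lay above the wildtype after a rescaling on the median gene. The members' median ratio was 0.785, with a range from 0.568 to 0.952, and their median log2 difference was -0.35, with a range from -0.81 to -0.07. Among the 9158 genes that reached 5 FPKM in either library, 67.2% were below the wildtype, and their median log2 difference was -0.30. The members' median was therefore close to that of all genes. Their spread was not, with an SD over genes of 0.14 for the members and 1.25 for all genes on the log2 scale. Of the 75 members, 40 lay within 0.1 of their median and 69 within 0.25. The median gene present at 5 FPKM in both libraries had a log2 ratio of -0.28 without the pseudocount, and a log2 difference of -0.27 with it. With *nm2* rescaled by the shift of -0.28, 52 members were below the wildtype and 23 above it, against 52.5% of all genes below.

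None of the 75 members was lower or higher by at least 2-fold (an absolute log2 difference of 1, given 5 FPKM in either library). Among all genes 15.0% were lower by 2-fold and 8.83% higher by 2-fold. No member is in the deposited table of 1727 differentially expressed genes. The paper's limits for that table include a 2-fold difference, so this absence follows from the count above and is no separate result. Of the 72 members above 1000 FPKM, 69 were lower by 10% or more, 45 by 20% or more, 8 by 30% or more and 1 by 40% or more.

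Genes of a like abundance varied more. Of 220 genes at 1000 FPKM or more in the wildtype, members included, 74.5% were lower in *nm2*. The 90 other genes inside the wildtype range of the 72 members had an SD of 2.69 on the log2 scale. That SD includes values as low as -10.24. Their quartiles were -0.84 and 0.23, against -0.45 and -0.27 for the 72 members. Of these 90 genes, 54 were lower in *nm2*, and 28 (31.1%) had a ratio inside the range of the 72 members. Genes that lie directly beside a member above 1000 FPKM in the RefSeq gene order were also more scattered, but at far lower levels. Their wildtype median was 24.4 FPKM, so they are not genes of a like abundance. For 59 such neighbours the median log2 difference was -0.40 and the SD 0.82. By 2-fold or more 4 were higher and 12 lower, and of all genes 8.83% were higher and 15.0% lower.

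The summed FPKM of the members was 191094 in the wildtype and 149414 in *nm2*, a ratio of 0.782. They held 16.58% of the summed FPKM of the wildtype library and 12.62% of that of the *nm2* library. FPKM is a relative measure, so a larger share for other transcripts lowers this value too. In pooled heads, fewer cells of a type and less RNA per cell cannot be told apart.

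Marker genes of several tissues moved between the libraries as well. The 11 listed fat body genes (storage and 30K proteins) summed to 11600 FPKM in the wildtype and 27544 FPKM in *nm2*. Of these, 3 were at 0 in the wildtype and 2 at 0 in *nm2*. The largest rises were those of *BGIBMGA004464* (30K protein 8), from 4855 to 15274 FPKM, and *BGIBMGA009028* (storage protein), from 2193 to 5625 FPKM. Of the 6 at 5 FPKM or more in a library 1 was lower, *BGIBMGA008860* (arylphorin), from 9.0 to 1.06 FPKM. The 6 silk gland genes summed to 4842 and 7335 FPKM, with 1 of them, *sericin 3*, at 0 in *nm2*. Of the 5 at 5 FPKM or more in a library 1 was lower, *BGIBMGA002810*, from 21.8 to 13.9 FPKM. Of all genes 67.2% were lower. The 16 muscle genes summed to 27461 and 19278 FPKM, with none at 0. The sums of all 3 sets thus shifted by more than that of the members or in the other direction. Their part in the members' lower share was not tested. Markers of the head and nervous system were weak, with 8 of 30 at 5 FPKM or more in a library. They summed to 187.1 FPKM in the wildtype and 162.2 FPKM in *nm2*, with 2 and 7 of them at 0. Of the 8, 4 were lower in *nm2* (67.2% of all genes were), with ratios from 0.206 to 2.788, so the sums hide opposite changes. *BGIBMGA005888*, named as elav-like, went from 17.7 to 4.78 FPKM. *BGIBMGA007503*, named as an extended synaptotagmin, went from 41.13 to 48.45 FPKM. The 2 midgut genes summed to 99.2 and 86.6 FPKM, with none at 0, but these like sums hide opposite changes. The ratio was 0.076 for *BGIBMGA007900* and 2.785 for *BGIBMGA007901*, both named as peritrophin-1-like.

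The subunits did not separate. The 46 large subunit genes had a median log2 difference of -0.35 and ratios from 0.627 to 0.952, and the 29 small subunit genes had a median of -0.35 and ratios from 0.568 to 0.918. Their SDs over genes were both 0.14. Summed FPKM of the large subunit fell from 111034 to 86479, and that of the small subunit from 80060 to 62935. The large to small ratio of these sums was 1.387 in the wildtype and 1.374 in *nm2*. Protein families of different age gave like values. The 31 members above 1000 FPKM from families found in all domains of life had a median log2 difference of -0.36, and the 40 from families without a bacterial counterpart had -0.34.

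**Figure D2:**
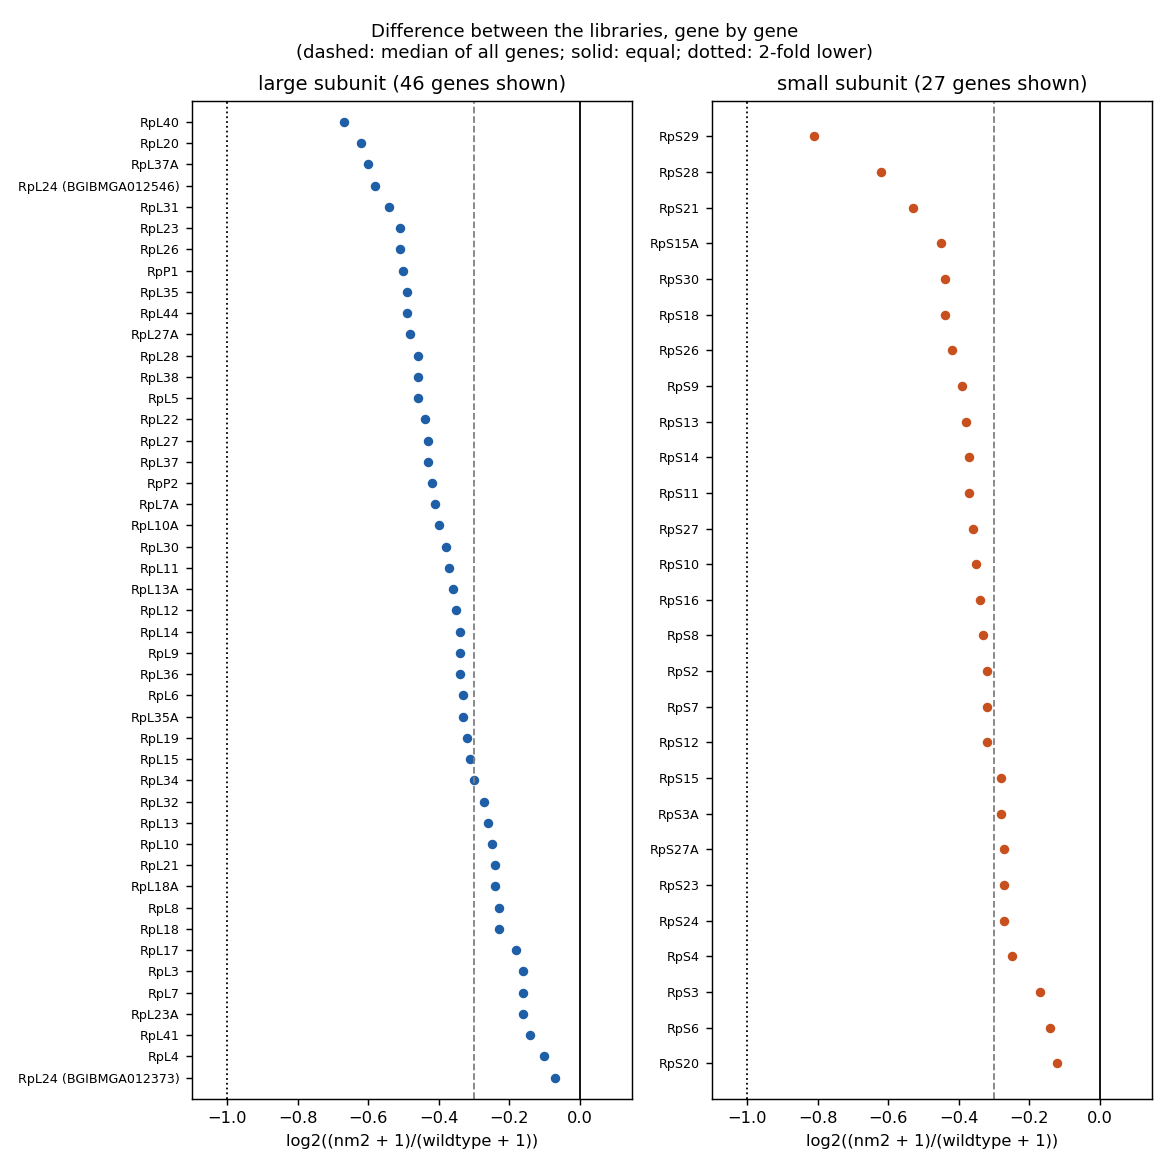
log2 difference between *nm2* and wildtype of the 46 large subunit genes (left) and of 27 of the 29 small subunit genes (right), sorted from the lowest at the top. The dashed line is the median of all genes (-0.30), and both subunits cross it, with *RpS29* at -0.81 the farthest below.

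The P stalk of the large subunit, a flexible arm that recruits elongation factors, held the most abundant member. *RpP2*, an acidic stalk protein, had a wildtype level of 6927 FPKM and an *nm2* level of 5187 FPKM. Its partner *RpP1* had 4508 and 3188 FPKM. *RpL12*, which lies at the base of the stalk, had 2197 and 1729 FPKM. P1 and P2 sit on the ribosome as dimers in several copies, unlike the other proteins, and their levels in both libraries were above that of *RpL12*. By level *RpP1* ranked 5 of 75 in the wildtype and 7 in *nm2*, behind *RpS23* and *RpL10* in both. Whether level goes with copy number was not tested. The ratios of *RpP2*, *RpP1* and *RpL12* were 0.749, 0.707 and 0.787.

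Genes for proteins around the peptidyl transferase centre, where the peptide bond is made, were among the less reduced as deposited. *RpL3*, which reaches into this centre, had 2389 and 2143 FPKM, a ratio of 0.897. *RpL10*, which is loaded late in assembly and helps to position the tRNA, had 4675 and 3922 FPKM, a ratio of 0.839. *RpL8* was at 2878 FPKM in the wildtype, with a ratio of 0.855. All 3 ratios were above the members' median of 0.785. Their log2 differences of -0.16, -0.25 and -0.23 were also above the -0.27 of the median gene present at 5 FPKM in both libraries. The 3 genes also had strong BLAST hits, and lower ratios went together with weaker hits, as described below.

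*RpL3* served the study as a reference gene for quantitative PCR, averaged with *GAPDH* and *BmActin3*. Its primers are shown because this member was 1 of the 3 genes whose average set the scale of those measurements.
RPL3 forward: gaagatgatccgctactgt
RPL3 reverse: tatcctttgcccttggtg
*GAPDH*, a glycolytic enzyme, had a ratio of 0.849 and *BmActin3*, a cytoskeletal actin, a ratio of 1.173. *RpL3* therefore lay between the other two reference genes. Among the 75 members it ranked 68th from the lowest log2 difference, so that most members had a lower ratio than the reference gene of their own family.

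The nascent chain leaves through a tunnel in the large subunit. *RpL4*, whose loop lines the narrow part of the tunnel, had 3026 FPKM (wildtype) and 2814 FPKM (*nm2*), the highest ratio among the members above 1000 FPKM at 0.930. *RpL17*, which also lines the tunnel, had 2273 and 2001 FPKM, a ratio of 0.880. At the mouth of the tunnel, *RpL23A*, a docking site for the signal recognition particle, had 2646 and 2374 FPKM. Its neighbours at the mouth had lower ratios, *RpL26* with 0.703 and *RpL35* with 0.714, against 0.897 for *RpL23A*. *RpL5* and *RpL11*, which bind the 5S ribosomal RNA, had ratios of 0.728 and 0.774.

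The small subunit proteins that touch the mRNA covered much of the range. *RpS2*, *RpS3*, *RpS9* and *RpS30* line or lie near the channel through which mRNA enters. *RpS3* had 2930 and 2612 FPKM, a ratio of 0.892, and *RpS30*, the least abundant member above 1000 FPKM, had 1446 and 1069 FPKM, a ratio of 0.739. *RpS2* and *RpS9* lay between them, at 0.801 and 0.762. At the decoding centre, where codon and anticodon pair, *RpS23* was the second member by level in both libraries, with 5160 and 4266 FPKM, and *RpS15* had 2166 and 1787 FPKM. Their ratios of 0.827 and 0.825 were nearly equal. *RpS6*, the protein phosphorylated by S6 kinase downstream of TOR, had 3173 and 2882 FPKM, a ratio of 0.908.

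The lowest ratios belonged to a few genes of both subunits. *RpS29*, a zinc-binding protein of the small subunit head, was at 2236 FPKM in wildtype heads and at 1271 FPKM in *nm2* heads, a ratio of 0.568. *RpL40*, made as a fusion with ubiquitin, had 2438 and 1529 FPKM, a ratio of 0.627. *RpS28*, near the mRNA exit, had 2505 and 1629 FPKM, a ratio of 0.650. By level these 3 genes ranked 41, 37 and 33 of 75 in the wildtype and 66, 54 and 47 in *nm2*. *RpS27A*, the other ubiquitin fusion, had a ratio of 0.830, so the fusions did not go together. *RpL37A*, *RpL24* (*BGIBMGA012546*), *RpL31* and *RpS21* were also low, with ratios from 0.659 to 0.693.

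At the other end, *RpS20*, of the small subunit head, was at 3047 and 2798 FPKM, a ratio of 0.918. *RpS4* came after *RpS6* and *RpS3* among the small subunit genes, with a ratio of 0.842, followed by *RpS27A* and *RpS24* at 0.830. *RpL7* had 1968 and 1766 FPKM, a ratio of 0.897, and rose from rank 59 to rank 43 by level. By mean level *RpS23*, *RpS2* and *RpS26* were the most abundant small subunit genes, *RpS2* with 4446 and 3559 FPKM and *RpS26* with 4539 and 3399 FPKM. The least abundant were *RpS30*, *RpS18* with 1870.1 and 1382 FPKM, and *RpS12* with 1833 and 1472 FPKM.

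The lower ratios went together with weaker BLAST hits. The E-value of a hit, the number of equally good hits expected by chance, falls with the length of the alignment and with identity. In the deposited table of differentially expressed genes, 842 genes with a silkworm hit had a Spearman rho of 0.81 between -log10 E and gene length, so that among those genes weaker hits belonged mostly to shorter genes. Among 70 members above 1000 FPKM with an E above 0, rho between -log10 E and the log2 difference was 0.55 (Pearson r 0.53). It was 0.56 over 41 large subunit genes and 0.49 over 29 small subunit genes. Members are not independent replicates, and all values come from the same pair of libraries.

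By class, 14 members with an E of 1e-50 or more had a median ratio of 0.720 and none above 0.794. The 37 with an E from 1e-100 to 1e-50 had a median of 0.792, and the 19 with an E under 1e-100 had 0.795. Over the 56 members with an E under 1e-50 and above 0, rho was 0.36, against 0.55 with the weakest hits included. Those weakest hits include *RpS29*, *RpS28*, *RpL37A* and *RpL24* (*BGIBMGA012546*). *RpL3* and *RpL4*, with an E of 0, had 0.897 and 0.930. Over 76 other genes of the same wildtype range rho was 0.24, and over 50 mitochondrial ribosomal proteins it was 0.24 as well. FPKM is divided by gene length and the lengths of the members are not listed, so the part of transcript length or of fragment size in these ratios was not tested. Within the members the wildtype level itself was only weakly related to the log2 difference, with a rho of 0.22 over 72 genes.

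**Figure D3:**
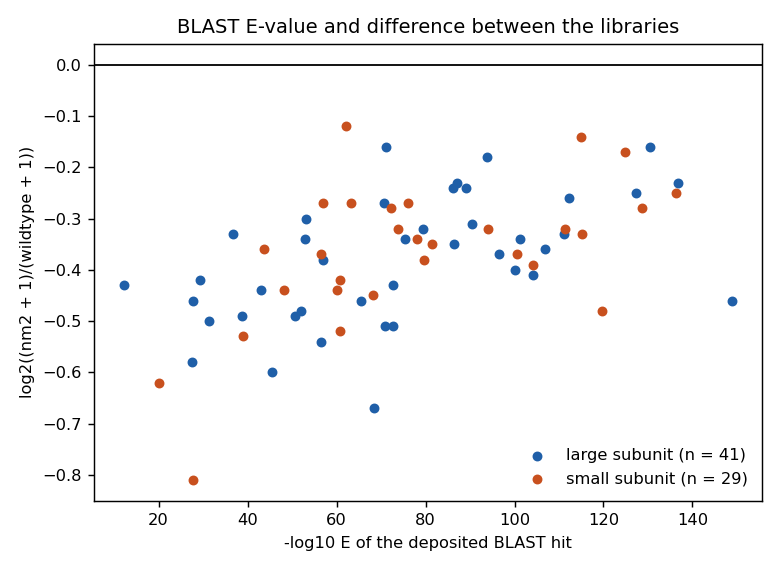
log2 difference between *nm2* and wildtype against -log10 E of the BLAST hit for the 70 members above 1000 FPKM with an E above 0 (blue, large subunit; orange, small subunit). Points on the left, with weak hits, lie lower, and *RpS29* (-0.81) and *RpS28* (-0.62) are at the lower left.

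Of the 75 members, 3 stood far below the rest in level, all with large subunit names. *RpL20* (*BGIBMGA000399*) was at 56.8 FPKM in the wildtype and at 36.6 FPKM in *nm2*. *RpL41* (*BGIBMGA007450*) had 37.9 and 34.4 FPKM. A gene model named *RpL24* (*BGIBMGA012373*) had 157 and 149 FPKM, whereas the other model of this name had 2696 and 1809 FPKM. These wildtype levels lie inside the range of the mitochondrial ribosomal proteins, whose 59 genes extended from 21.3 to 161 FPKM in the wildtype. L20 is not among the 79 expected names. L41 is the smallest protein of the animal ribosome, yet the E of its hit, 9.83e-34, was lower than that of *RpS29*, 1.67e-28. That this model is the cytosolic L41 rests on the name of its hit alone and was not tested. The *RpL24* models hit different proteins, the abundant one in *Manduca sexta*. The ratios of the 3 genes were 0.645, 0.908 and 0.952. Without them, a selection made after their values were seen, the members' median log2 difference was -0.35 as before.

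The mitochondrial ribosome, which translates the mRNAs of the mitochondrial genome, had genes with lower ratios. Of its 59 genes, 58 were lower in *nm2* (98.3% against 67.2% of all genes). By 2-fold or more 9 were lower, a share of 15.3% that is near the 15.0% of all genes. The median log2 difference was -0.69 and the SD over genes 0.30. *BGIBMGA013513* (28S ribosomal protein S11) went from 56.0 to 19.2 FPKM and *BGIBMGA011606* (39S ribosomal protein L52) from 44.2 to 16.1 FPKM. Their summed FPKM was 3260 in the wildtype and 1972 in *nm2*, a ratio of 0.605 against 0.782 for the cytosolic genes. With 1 library per strain the difference between these sets could not be tested.

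Other genes of translation were described by 9 lists of BLAST names. The median gene present at 5 FPKM in both libraries had a log2 difference of -0.27. The medians of elongation factors, biogenesis factors, RNA polymerase I and the TOR list lay above it and those of the other 5 lists below it. Elongation factors, which bring tRNA to the ribosome and move it along, came first. All 6 were lower in *nm2*, with ratios up to 0.998, and of all genes 67.2% were lower. None was lower by 2-fold, against 15.0% of all genes, and the median log2 difference was -0.26. *Elongation factor 1 alpha* (*BGIBMGA003608*) had 7112 and 6517 FPKM, and *elongation factor 2* (*BGIBMGA004165*) had 2331 and 2295 FPKM. *Elongation factor 1 delta* (*BGIBMGA003475*), of the nucleotide exchange complex, had 426 and 229 FPKM and was the lowest of the list, with a ratio of 0.537. Both termination and recycling factors were lower, with a median of -0.44.

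Initiation factors, which load the small subunit on the mRNA, were more scattered. Of 48 genes, 43 were lower in *nm2* (89.6% against 67.2% of all genes). By 2-fold or more 7 were lower, 14.6% against 15.0% of all genes, and 1 was higher. Their median log2 difference was -0.60 and the SD over genes 0.77. *BGIBMGA013026*, named as a subunit A of initiation factor 3, had 86.0 and 4.57 FPKM, whereas another model of that name, *BGIBMGA013025*, had 159 and 163 FPKM. The opposite direction was taken by *BGIBMGA007466*, named as a 4E-binding protein, a repressor that holds the cap-binding factor eIF4E. Its level went from 51.0 to 286 FPKM, a ratio of 5.6. Of the genes named as *eIF4E*, *BGIBMGA012674* had 240 and 143 FPKM and the lowest ratio, 0.595. *BGIBMGA012675* (*eIF4E-1*) and *BGIBMGA013605* (*eIF4E-2*) had ratios of 0.706 and 0.717.

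Of 14 factors that work at the ribosome, namely the signal recognition particle and its receptor, the Sec61 translocon, the nascent polypeptide-associated complex and *RACK1*, all were lower. Of all genes 67.2% were lower. By 2-fold or more 4 of these factors were lower (28.6% against 15.0% of all genes), and the median log2 difference was -0.80. The translocon, the channel for secreted proteins in the endoplasmic reticulum, was represented by *Sec61 alpha* (*BGIBMGA012687*) with 1002 and 425 FPKM, *Sec61 beta* (*BGIBMGA006209*) with 777 and 303 FPKM, and *Sec61 gamma* (*BGIBMGA013713*) with 414 and 186 FPKM. *SRP19* (*BGIBMGA012571*), of the signal recognition particle, had 76.8 and 27.4 FPKM. These 4 were named for the largest differences of the list, with ratios from 0.356 to 0.448. The others reached from 0.507 up to 0.922 for *BGIBMGA009698*, a subunit of the nascent polypeptide-associated complex, and *RACK1* (*BGIBMGA007477*), a small subunit scaffold, had 0.906.

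Genes that make ribosomes were more scattered than the ribosomal proteins, with an SD over genes of 0.44 on the log2 scale for the biogenesis factors. The wildtype median of these was 26.4 FPKM against 2389 FPKM for the members, so the SDs are not compared at a like level. Of 71 biogenesis factors, 47 were lower in *nm2*, a share of 66.2% that is near the 67.2% of all genes. By 2-fold or more 2 were lower (2.82% against 15.0% of all genes), and the median log2 difference was -0.24. *BGIBMGA007962*, named as *IMP3* of the U3 particle that processes ribosomal RNA, had 31.5 and 13.4 FPKM. *BGIBMGA009893*, the exosome subunit *Rrp40*, had 15.3 and 6.93 FPKM. The exosome subunits did not go together, since *BGIBMGA007698*, named as *RRP4*, rose from 7.02 to 14.3 FPKM, a log2 difference of 0.93. RNA polymerase I transcribes ribosomal RNA and shares some subunits with the other polymerases. Of 9 genes, subunits and the initiation factor *RRN3*, 5 were lower, none by 2-fold in either direction, with a median of -0.05. Of 22 aminoacyl-tRNA synthetases, which charge tRNA, 21 were lower, and the median was -0.44. By 2-fold or more 2 of them were lower (9.09% against 15.0% of all genes). *Tryptophan tRNA ligase* (*BGIBMGA005126*) had 51.0 and 21.9 FPKM.

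The list of TOR and S6 kinase genes went both ways, with 5 of 9 lower (55.6% against 67.2% of all genes). Its median log2 difference was -0.02. By 2-fold or more, 3 were lower (33.3% against 15.0% of all genes) and 2 higher (8.83% of all genes were). The list includes the 4E-binding protein above. *BGIBMGA011088*, named as a ribosomal S6 kinase of the RSK kind, which is a family apart from the S6 kinase that TOR activates, had 4.65 and 13.8 FPKM. *BGIBMGA000141*, *BGIBMGA000142* and *BGIBMGA000143*, which share the name S6 kinase alpha-5-like, had ratios from 0.371 to 0.440. They are the 3 lower genes counted above, and whether these models are parts of a single gene was not tested.

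**Figure D4:**
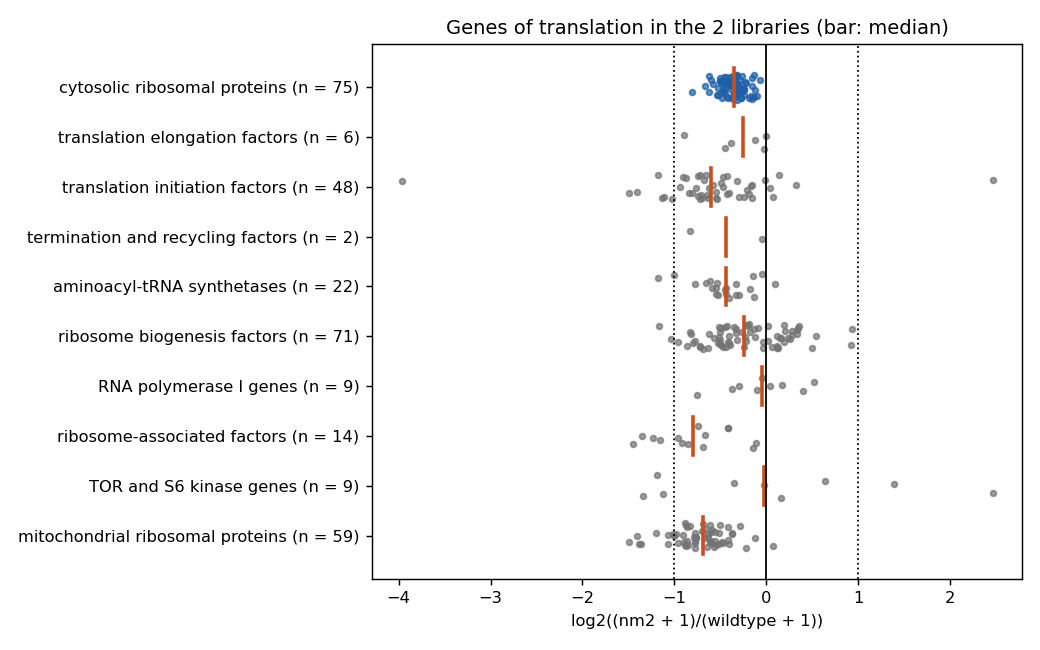
log2 difference between *nm2* and wildtype of each gene that reached 5 FPKM in either library, for the cytosolic ribosomal proteins (blue) and 9 lists of other translation genes (grey), with the median of each as an orange bar and dotted lines at 2-fold. The ribosomal proteins form the narrowest group of more than 2 genes, with an SD of 0.14, and the mitochondrial ribosomal proteins centre lower, at -0.69. The groups differ in level, so their spreads are not compared at a like abundance.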

How the data were processed

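The heads of wildtype C603 and *nm2* larvae gave 1 library each, sequenced as single reads of 49 bases on an Illumina HiSeq instrument. Alignment was to SilkDB reference sequences and abundance came from RSEM, and the authors deposited the result as FPKM. Read totals and the percent of reads mapped to genes were taken from the deposited table of read counts and mapping. The version of RSEM is not given in the sources used here. Gene lengths in bases were read from the deposited table of differentially expressed genes. The fold changes, P and FDR in that table were not used. There were 0 columns without a sample.

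Names and E-values came from the deposited BLAST results, and subunits from the letter in the name. The log2 difference had a pseudocount of 1 FPKM, and a 2-fold change needed an absolute value of 1 and at least 5 FPKM in either library. The named genes were *RPL3*, the 5 highest and 5 lowest log2 differences and 3 most and 3 least abundant members of each subunit, members with a listed role, and up to 4 genes of each list with the largest absolute difference. Of the genes this rule picks, 2 small subunit members are not reported here by name, and counts and medians include them. Further genes (the *eIF4E* genes, *RACK1*, *RRN3*, *BGIBMGA009698*, *eIF3A* model *BGIBMGA013025*, elongation factors 1 alpha and 2, and some tissue markers) were chosen after their values were seen. The members and lists were chosen with earlier results of these data known. Of the members, 65 matched a RefSeq gene of assembly ASM3026992v2, used for gene neighbours only. Planned counting intervals and sequence features were not computed, since lengths and sequences of the members were not at hand. The scripts were tested on simulated data. The software was pandas 2.3.3, matplotlib 3.10.9, SciPy 1.17.1 and NumPy 2.4.6 under Python 3.11.15.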

Additional observations from a re-analysis of the deposited data

How the results depend on the processing

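The medians and counts of members, 7 results, were computed again under a pseudocount of 0.1 FPKM or 0, under 3 rescalings and for the expected names at 100 FPKM or more, and, a choice made after seeing the data, without the 3 members under 200 FPKM. The 2 shares of summed FPKM were run for the latter choices of members only. No minimum FPKM, a minimum of 20 FPKM and 1 gene model per BLAST protein kept all 75 members, so their 27 values could not differ and say nothing about stability. Of the other 53 values, 13 moved. A count was taken to move only beyond 1.5 times, so this leaves out the members below the wildtype, which went from 75 to 52 with *nm2* rescaled to a median log2 ratio of 0. Rescaled to a sum of 1000000 (TPM), the median log2 difference was -0.39 for all members, for the large and for the small subunit. Under that median rescaling it was -0.07 for each of these. The difference of the subunit medians, large minus small, was -0.01 and became 0.0 with a pseudocount of 0.1 FPKM, without any pseudocount, under the median rescaling and for the expected names. For these names the share of summed FPKM was 16.4% in the wildtype and 12.5% in *nm2*. Without the 3 low members the large subunit median was -0.36. No result reversed. No paired analysis was possible because each strain has 1 library.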
